A study of Mus musculus with 2 samples.

Results

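The SR proteins and the hnRNPs are the main families of RNA-binding proteins that choose which exons are kept in a message. The 31 genes described here are all protein-coding mouse genes whose symbol is Srsf followed by a number (11 SR genes) or starts with Hnrnp (20 hnRNP genes), out of 21474 protein-coding genes in the deposited tables. They were read in total RNA of common myeloid progenitors (CMP), bone marrow cells that give rise to granulocytes, monocytes, red cells and megakaryocytes. Each of 2 libraries was made from 100 sorted primary cells of adult male C57BL/6J mice of 5 to 6 weeks, with RNA over 200 nucleotides kept and spike-ins added, and no genotype or treatment is given. Both libraries form 1 group, with no contrast between conditions in the design, and separate biosamples but 1 donor identifier are named. The p-values below therefore compare only these 2 libraries, whose differences may be technical, and set them against counting error alone. They measure no spread between libraries, and the smallest two-sided sign-flip p that 2 libraries allow is 0.5.

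SR proteins bind exons through an RNA recognition motif and recruit the spliceosome through a domain rich in arginine and serine, and their activity is set by kinases that phosphorylate that domain. The hnRNPs coat nascent RNA and often act the other way, by masking splice sites, and several also act in mRNA export, stability and translation. Both families are known to control their own levels. Their pre-mRNAs can be spliced into forms with an early stop, which nonsense-mediated decay (NMD) removes, or can keep an intron and stay in the nucleus. SRSF2 is recurrently mutated in human myeloid neoplasms, which gives the family a particular place in myeloid cells.

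Replicate 1 held 28916263 expected counts and replicate 2 held 26426710. A gene without counts is thereby limited to 0.104 CPM in replicate 1 and 0.114 CPM in replicate 2 (counts per 1000000, the level of 3 counts), which covers counting error only because no molecular identifiers were read. Of the 6 genes of the CMP gate, Kit stood at 98.1 and 92.95 TPM (transcripts per 1000000) and Cd34 at 74.5 and 55.4 TPM in replicates 1 and 2. Ly6a and Il7r, which this gate leaves out, had 0 counts in both libraries. The Fc receptor genes Fcgr2b and Fcgr3, low in this gate and high in granulocyte-monocyte progenitors, read 2.48 and 9.59 TPM and 0.64 and 4.27 TPM, both higher in replicate 2. At 1 TPM or more in both libraries stood 6 of 7 erythroid and megakaryocyte markers, 6 of 7 granulocyte and monocyte markers, 2 of 4 stem cell markers, 0 of 6 lymphoid markers and 0 of 5 neuron and muscle markers. The summed level was 1417 and 1374 TPM for the erythroid and megakaryocyte markers, of which Car1 gave 1185 and 1086, and 462 and 509 TPM for the granulocyte and monocyte markers, of which Mpo gave 386 in each. Other markers differed more, in both directions: Itga2b read 49.8 and 100.02 TPM, Prtn3 37.1 and 105.4, Elane 21.0 and 9.14, Csf1r 10.8 and 4.63, and Hbb-bs 28.7 and 3.75. The part of these markers in differences between the libraries was not tested. In bulk RNA of a pool, fewer cells of a type and less RNA per cell cannot be told apart.

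Among the member transcripts listed, the annotation classes 23 as NMD targets, from 14 of the 31 genes. Of these, Hnrnpd-209, Hnrnpr-206 and Srsf5-208 had 0 counts in both libraries. Hnrnpr-206 and Srsf5-208 are the only such entries of their genes. An NMD target is marked by a stop codon more than 50 nucleotides before the last exon junction. The last 30 coding bases of 7 of these transcripts are shown because the place of the stop relative to later junctions is what sets these transcripts apart. They are written 5′ to 3′ in the sense of the gene, from the GENCODE M21 transcripts on GRCm38, with the stop codon in capitals. The first 3 had a mean share above 20% of their gene's TPM, and the other 4, chosen after their values were seen, add further SR and hnRNP genes.
Srsf2-204: ccagaagaagagggagcagtttcttccTAA
Srsf1-204: aagagatggattaagaatgctttggatTAA
Hnrnpd-208: ggacatcaaaatagctacaaaccatacTAA
Srsf6-201: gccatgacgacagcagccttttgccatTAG
Srsf3-201: accatcatgtctcttctcaccaccctcTGA
Srsf4-203: gtaacccggttgtctcatgccccagctTAG
Hnrnpdl-205: attctccgcgtgcccgctggaccccagTAG

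The stops came in different kinds. The stop of Srsf2-204 (chr11:116852028-116852030, minus strand) is also the stop of the protein-coding Srsf2-201, but Srsf2-204 is spliced at 2 further junctions downstream of it, the last of them 113 nucleotides away. Hnrnpd-208 likewise shares its stop (chr5:99962545-99962547, minus strand) with 4 coding transcripts of Hnrnpd and has 2 junctions after it, the last 137 nucleotides away. The stop of Srsf1-204 (chr11:88050013-88050015, plus strand) is the stop of no coding transcript and lies 80 nucleotides before the last junction. In Srsf3-201 the stop (chr17:29039485-29039487, plus strand) lies in an exon of 456 nucleotides, chr17:29039454-29039909, that no coding transcript of Srsf3 holds. Srsf4-203 (chr4:131884388-131884390, plus strand) and Hnrnpdl-205 (chr5:100038593-100038595, minus strand) also end in exons of no coding transcript, of 207 and 322 nucleotides. The stop exon of Srsf6-201, of 268 nucleotides, matches no coding exon exactly, and its stop (chr2:162932964-162932966, plus strand) is shared with Srsf6-202 alone. Over the 23 transcripts, 8 shared their stop with a coding transcript and 15 did not, and 14 had a stop exon whose ends match no exon of a coding transcript. In 10 the stop itself lies in no coding transcript's exon. The distance from stop to last junction ran from 67 to 860 nucleotides. The tables were made on an earlier annotation release, in which 22 of the 23 transcripts had the same length as here, and Srsf3-201 had 1919 nucleotides against 2594.

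Nearly all members were expressed, and most were among the most abundant messages of the cells. At 1 TPM or more in both libraries stood 30 of 31 members, against 9639 of 21474 protein-coding genes (44.9%). All 20 hnRNP genes and 10 of 11 SR genes were detected, at medians of 151.4 and 149.6 TPM for the hnRNPs and 113.6 and 123.5 TPM for the SR genes in replicates 1 and 2. The median of the protein-coding genes detected in both libraries was 13.2 and 13.5 TPM. The lowest detected member value was 18.5 TPM, so every detected member lay above that median in each library. Summed over genes, the hnRNPs reached 3194 and 2970 TPM (0.846% and 0.756% of the TPM of nuclear protein-coding genes), and the SR genes 1342 and 1440 TPM (0.355% and 0.367%). The hnRNP sum was lower in replicate 2 and the SR sum higher.

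**Figure D1:**
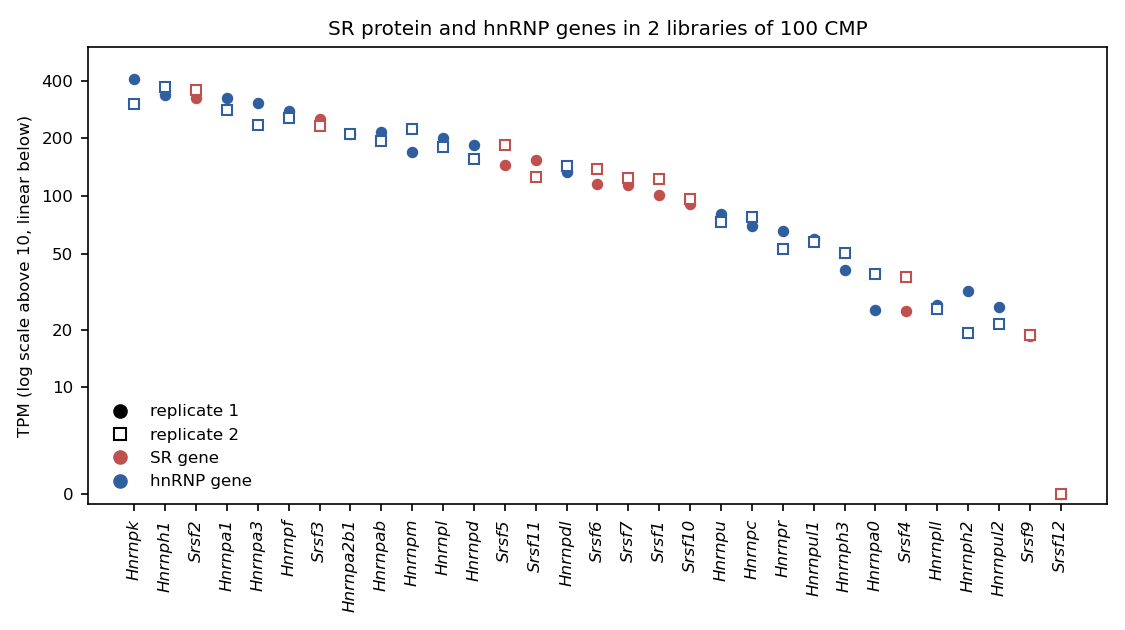
Level of each of the 31 genes in TPM (y axis, log scale above 10 and linear below) in replicate 1 (filled circles) and replicate 2 (open squares), SR genes in red and hnRNP genes in blue, ordered by mean. Hnrnpk leads at 407 and 303 TPM, Srsf9 is the lowest detected gene at 18.5 and 18.8 TPM, and Srsf12 is at 0 in both libraries.

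Hnrnpk, a KH-domain protein that binds C-rich RNA and DNA (chromosome 13, 58391142 to 58403343), read 407 TPM in replicate 1 and 303 TPM in replicate 2. Hnrnph1, which binds runs of G near splice sites (chromosome 11, 50376990 to 50386528), read 336 and 371 TPM. Srsf2, an SR protein that binds exon enhancers (chromosome 11, 116849901 to 116853094), read 326 and 359.6 TPM. These 3 genes overlapped across libraries. Hnrnpa1, which binds exon silencers (chromosome 15, 103240432 to 103246692), read 326 and 281 TPM. Its relative Hnrnpa3 (chromosome 2, 75659261 to 75669407) read 306 and 235 TPM. Hnrnpa1 and Hnrnpa3 each overlapped with the gene next above by mean. Both lay wholly below Hnrnph1, and Hnrnpa3 wholly below Srsf2. Each of the 5 stood at percentile 99.1 or higher among protein-coding genes in both libraries, Hnrnpk at 99.4 and 99.3. With the order taken by mean TPM, a gene was set apart from the next one only where its lower value exceeded the next gene's higher value. This held for 9 of the 30 neighbouring pairs, so the order of most neighbours in the list is not resolved by 2 libraries. Pairs further apart in the list were not counted. The 9 steps fell below Hnrnpf, Srsf3, Srsf1, Srsf10, Hnrnpc, Hnrnpul1, Hnrnph3, Hnrnpul2 and Srsf9.

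Among the SR families, levels were spread unevenly between close relatives. Srsf3 (chromosome 17, 29032628 to 29043373), the smallest SR protein and an adapter for mRNA export, read 253.5 and 231 TPM. Its relative Srsf7, which adds a zinc knuckle to the same plan, read 113.6 and 123.5 TPM, so that Srsf3 held 69.1% and 65.2% of the sum of the pair. Srsf1, the best-studied splicing enhancer protein of the family (chromosome 11, 88047373 to 88053755), read 101.4 and 123.3 TPM against 18.5 and 18.8 TPM for its relative Srsf9. Srsf9 was the lowest detected member and rested on 386 counts in each library.

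In the group of Srsf4, Srsf5 and Srsf6, which share a second RNA-binding domain, Srsf5 held 50.9% and 51.3% of the TPM and Srsf6 40.4% and 38.2%. Srsf5 read 145 and 185 TPM and Srsf6 115 and 138 TPM, while Srsf4, the longest protein of the 3, stayed at 25.03 and 37.9 TPM. Both libraries gave the same order within the group, with no overlap between Srsf4 and the others. Srsf11, which contacts early splice site factors, read 153.4 and 126.3 TPM. Srsf10, known as a splicing repressor in its dephosphorylated form, read 91.1 and 96.2 TPM, and its relative Srsf12 (chromosome 4, 33208991 to 33233340) had 0 counts in both libraries. Srsf12 was thereby the single undetected member.

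The hnRNP A/B proteins, classic repressors that bind exon and intron silencers, summed to 869 and 764 TPM. Hnrnpa1 held 37.5% and 36.7% of that sum, Hnrnpa3 35.2% and 30.7%, and Hnrnpa2b1 24.3% and 27.5%. Hnrnpa2b1 read 211 and 209.9 TPM, and Hnrnpa0, an intronless gene of the same family, 25.4 and 39.1 TPM. The A1, A2B1 and A3 genes thus shared most of the family's RNA, and Hnrnpa0 stood below them in both libraries.

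The F/H proteins, which recognise G-tracts, summed to 686 and 697 TPM. Hnrnph1 held 49.0% and 53.2% and Hnrnpf 40.4% and 36.8%, with Hnrnpf (chromosome 6, 117900324 to 117925622) at 277 and 256 TPM. Hnrnph3 read 41.0 and 50.6 TPM, and the X-linked Hnrnph2 (chromosome X, 134601179 to 134607060) 31.8 and 19.2 TPM. The main pair did not overlap with the minor pair, and by all transcripts Hnrnph3 stayed above Hnrnph2 in both libraries.

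The D group binds AU-rich elements and acts on mRNA decay as well as splicing. Hnrnpab read 215 and 193 TPM, Hnrnpd 185 and 156 TPM, and Hnrnpdl 134 and 143 TPM. By all transcripts the order was thus the same in both libraries. By coding transcripts alone, Hnrnpdl stood above Hnrnpd in replicate 2, at 100.2 against 98.2 TPM. This leaves out a Hnrnpd transcript without a match in the annotation, at 18.1 TPM in replicate 2. That is more than the gap between both genes, so the reversal depends on how this transcript is classed. Hnrnpl, which binds CA repeats, read 200.3 and 181 TPM and held 88.2% and 87.5% of its pair. Its relative Hnrnpll, known from the splicing of the leukocyte antigen gene Ptprc in lymphocytes, read 26.9 and 25.8 TPM.

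The remaining hnRNPs have single or scaffold roles. Hnrnpm, an intronic regulator (chromosome 17, 33646233 to 33686860), read 169 and 224 TPM. Hnrnpu, a nuclear scaffold protein, read 80.7 and 73.4 TPM, with Hnrnpul1 at 59.5 and 57.5 TPM and Hnrnpul2 at 26.4 and 21.4 TPM. By all transcripts the order in the U group was the same in both libraries, with no overlap. Hnrnpc, which binds U-tracts and helps to package pre-mRNA, read 69.6 and 78.0 TPM, and Hnrnpr 65.3 and 52.7 TPM. Of the 31 members, 11 had an expected count that was not exactly a whole number in at least 1 library (tolerance 0). Such values arise where reads are divided between entries, so these levels are given as less certain. They were Hnrnpk, Hnrnpa1, Hnrnpa3, Hnrnpf, Srsf3, Hnrnpm, Srsf5, Srsf10, Hnrnpu, Hnrnpc and Hnrnpr.

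A large part of this RNA was assigned to transcripts that are not annotated to make protein. Of the 212 member transcripts in the tables, 108 are annotated as protein-coding, 23 as NMD targets, 51 as retained introns and 29 as other processed transcripts, and 1 was not matched. The latter 3 annotated classes are called unproductive here, and their share of a gene's TPM was read from the deposited percent values. Coding transcripts held 50.7% and 51.9% of SR TPM in replicates 1 and 2, and 77.7% and 76.3% of hnRNP TPM. These sums depend in part on the annotation. Genes without an annotated unproductive transcript count as all coding, such as Hnrnpa1, Hnrnpf, Hnrnpa2b1 and Hnrnpab among the hnRNPs and Srsf7 among the SR genes. Among the 9 SR genes with both kinds of transcript and 50 or more counts, the median unproductive share was 53.8% and 43.7%. Among the 11 such hnRNP genes it was 38.5% and 29.9%.

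The same median over all 5823 protein-coding genes that met these conditions was 24.3% and 22.7%, and over the 2014 of them at 20 TPM or more it was 28.9% and 26.8%. The share exceeded 50% in both libraries in 6 members, 4 SR and 2 hnRNP, against 15.4% of the 5823 genes and 19.6% of those at 20 TPM or more. Members carry a median of 4 annotated unproductive transcripts, against 3 over all 5823 genes. Transcript values are estimates, because reads that fit several transcripts are divided among them, and at equal counts a short transcript has more TPM than a long one. By share of expected counts the medians were 39.5% and 39.9% for the SR genes and 23.9% and 21.4% for the hnRNPs, against 11.7% and 10.1% over all 5823 genes. In this total RNA, retained-intron transcripts were not told apart from pre-mRNA not yet spliced. Without retained introns the median TPM share over both libraries was 16.55% for the SR genes and 4.2% for the hnRNPs. No value over all genes is given for this.

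**Figure D2:**
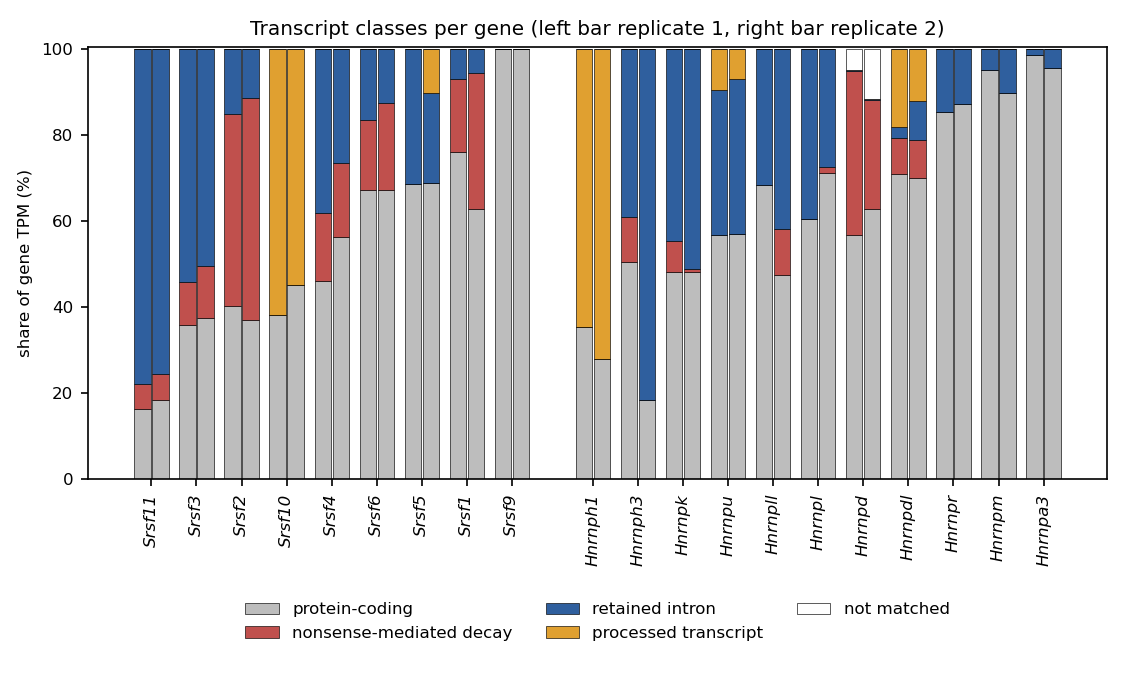
Share of each gene's TPM (y axis, %) in protein-coding, NMD, retained-intron, processed and unmatched transcripts, for the 20 members with both kinds of transcript, as a left bar for replicate 1 and a right bar for replicate 2. Srsf11 has the smallest coding part of the SR genes, Srsf2 the largest NMD part (44.6% and 51.6%), and Srsf9 is all coding.

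Srsf11 had the highest mean unproductive share, at 83.6% in replicate 1 and 81.5% in replicate 2, where Hnrnph3 reached 81.6%. It was carried by retained introns, mainly Srsf11-213 (27.3% and 33.8%) and Srsf11-203 (23.2% and 23.5%), which at 2952 and 1309 nucleotides are not short fragments. By counts the share was 76.3% and 77.6%, so the gene stood high on both scales.

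For Srsf3 the unproductive share was 64.0% and 62.5%, or 50.6% and 52.4% by counts. Its largest unproductive form was the retained intron Srsf3-205 at 44.3% and 37.2%. The NMD form Srsf3-201, whose stop lies in the 456-nucleotide exon above, took 9.89% and 12.1%, and the only coding form 35.9% and 37.5%.

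Srsf2 differed from both in that its unproductive RNA was mainly an NMD form. The total was 59.6% and 63.0%, of which Srsf2-204, the form spliced downstream of the normal stop, took 44.6% and 51.3%. Srsf2-204 is 620 nucleotides long, and by counts the unproductive share of the gene was 39.5% and 39.9%. The share was therefore lower by counts, and the libraries were close on both scales.

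Srsf10 read 61.8% and 54.95%, all of it processed transcripts, but 33.3% and 20.0% by counts. Its leading unproductive form moved between libraries, with Srsf10-207 at 13.9% and 36.2%. Srsf4 read 53.8% and 43.7%, mostly the retained intron Srsf4-201 at 38.0% and 26.4%. Its NMD forms Srsf4-203 and Srsf4-204 end at the same stop, and one was read at 15.8% in replicate 1 and the other at 14.5% in replicate 2.

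Srsf5 and Srsf6 were alike in total, at 31.4% and 31.2% for Srsf5 and 32.7% and 32.8% for Srsf6. Srsf5 held it in retained introns and processed transcripts, with Srsf5-212 at 27.5% and 13.1%, and Srsf6 in the NMD form Srsf6-201 (16.2% and 20.3%) and retained introns. Srsf1 read 23.9% and 37.2%, with the NMD form Srsf1-204 at 11.95% and 31.6%. By counts Srsf5 was higher, at 46.9% and 40.6%, Srsf6 lower, at 23.6% and 22.3%, and Srsf1 lower, at 3.92% and 9.15%. Srsf9 had 2 annotated unproductive transcripts and no reads in either, and Srsf7 had none in the tables.

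Among the hnRNPs, Hnrnph1 had the highest mean, at 64.5% and 72.1%, all of it processed transcripts, or 54.8% and 62.8% by counts. Hnrnph1-212, of 816 nucleotides, took 30.4% and 37.0%. Hnrnph3, at 49.4% and 81.6%, was above Hnrnph1 in replicate 2 alone. Hnrnpk read 51.7% in both libraries, mainly retained introns, with the 522-nucleotide Hnrnpk-215 at 27.2% and 20.1%. By counts Hnrnpk was at 23.9% and 21.4%, under its TPM share in both libraries.

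Hnrnpu read 43.2% and 42.95% of TPM but 6.03% and 5.26% of counts. Its unproductive form Hnrnpu-202 has 673 nucleotides and took 23.1% and 34.5% of TPM. Hnrnpu is the member with the widest gap between both scales in each library. Hnrnpl read 39.5% and 28.7% and Hnrnpdl 28.95% and 29.9%.

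In Hnrnpd the unproductive share was 38.5% and 25.6%, led by the NMD form Hnrnpd-208 at 26.01% and 22.8%, and a transcript without a match in the annotation took 4.76% and 11.6%. Hnrnpr read 14.6% and 12.7%, Hnrnpm 4.75% and 10.1%, and Hnrnpa3 1.44% and 4.30%. No unproductive transcript was in the tables for Hnrnpa0, Hnrnpa1, Hnrnpa2b1, Hnrnpab, Hnrnpc, Hnrnpf, Hnrnph2, Hnrnpul1 and Hnrnpul2. A share of 0 for these 9 genes is therefore a property of the annotation used, not a measurement.

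Counting coding transcripts alone changed the order of the members. Hnrnpa1 then led at a mean of 303 TPM, followed by Hnrnpf at 267, Hnrnpa3 at 263 and Hnrnpa2b1 at 210.5 TPM. Hnrnpa1, Hnrnpf and Hnrnpa2b1 have no annotated unproductive transcript, so their values could not fall. Hnrnpk moved from place 1 to place 7 at 171 TPM, Srsf2 from 3 to 8 at 132 TPM, Hnrnph1 from 2 to 12 at 111 TPM, Srsf3 from 7 to 15 at 88.95 TPM and Srsf11 from 14 to 25 at 24.3 TPM. Within the F/H group Hnrnpf then held 61.7% and 66.0%, and Hnrnph1 26.6% and 26.65%. Srsf7, at 113.6 and 123.5 TPM, stood above Srsf3, at 91.2 and 86.8 TPM, in both libraries. Hnrnpul1, at 59.5 and 57.5 TPM, then stood above Hnrnpu, at 45.9 and 41.9 TPM. Hnrnph2, at 31.8 and 19.2 TPM, stood above Hnrnph3, at 20.7 and 9.31 TPM. The order of these pairs by all transcripts was the opposite. In each pair the gene then higher (Hnrnpf, Srsf7, Hnrnpul1 or Hnrnph2) has no annotated unproductive transcript. Its value could not fall, so these reversals depend on the annotation used. The order by coding transcripts was added after the values were seen.

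**Figure D3:**
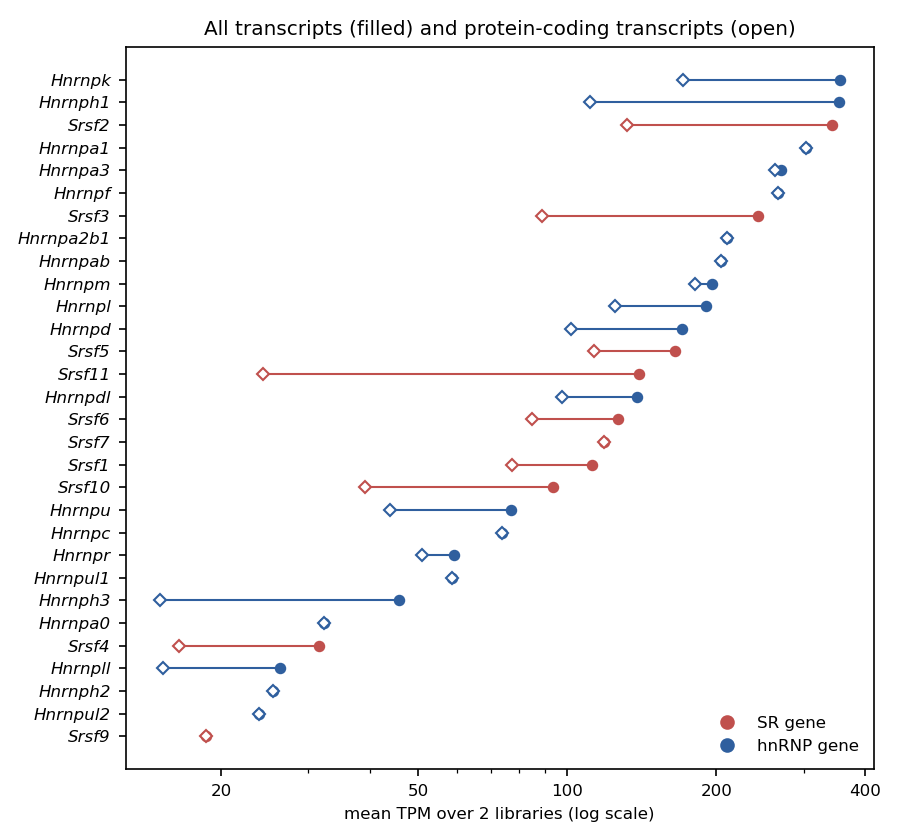
Mean TPM over both libraries (x axis, log scale) from all transcripts (filled circles) and from protein-coding transcripts alone (open diamonds) for the 30 detected members, ordered by the former. The long lines of Srsf11, Hnrnph1, Srsf3, Hnrnph3 and Srsf2 are the members with the smallest coding part, while Hnrnpa1 and Hnrnpf do not move. Neither Hnrnpa1 nor Hnrnpf has an annotated unproductive transcript, so they could not move.

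Protein-coding forms also differed within genes. In Hnrnpul1 and Srsf9 1 of 2 coding transcripts took 100% of TPM in both libraries. Hnrnpul2, Hnrnpa0 and Srsf7 have 1 transcript each in the tables, which fixes their share. For Hnrnpm the leading coding entry was Hnrnpm-204, an annotated fragment of 634 nucleotides with 56 codons, at 58.3% and 50.6%, so the TPM of this gene leans on a short entry. The longer Hnrnpm-201 took 12.9% and 26.4%. Hnrnph2 has 5 annotated coding transcripts, of which Hnrnph2-201 had 0 counts in both libraries. Hnrnph2-202 took 0% in replicate 1 and 74.6% in replicate 2. In replicate 1 Hnrnph2-203 and Hnrnph2-205 took 45.0% and 45.3% instead. Hnrnpf-210, the leading form of Hnrnpf, took 44.65% and 67.4%. No test was made on shares of coding forms.

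Set against each other, the 2 libraries differed little in the members in size. Counts were compared by a two-sided exact binomial test with TMM scaling and Benjamini-Hochberg adjustment over all 13616 genes tested, which covers counting error alone and compares these libraries, not conditions. It called 23 of the 30 members, 8 higher and 15 lower in replicate 2, where it called 78.2% of all genes tested (40.7% higher and 37.5% lower). The SR genes gave 4 higher and 3 lower, and the hnRNPs 4 higher and 12 lower. No member reached a 2-fold difference, against 21.8% of all genes that reached 50 counts in either library. Every detected member had at least 386 counts in each library, so that background includes genes of far lower counts. The 2-fold share was not taken over genes of like level. The median size of the log2 ratio was 0.16 over the members, 0.07 for SR and 0.20 for hnRNP genes, against 0.36 over all detected protein-coding genes and 0.23 over the 2889 at 20 TPM or more. By edgeR's exact test at a common dispersion of 0.575, 0 members and 0% of all genes tested passed, and 0 members had an unadjusted p under 0.05. That dispersion is estimated from the same difference it is used to test, so these zeros say nothing about the members.

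**Figure D4:**
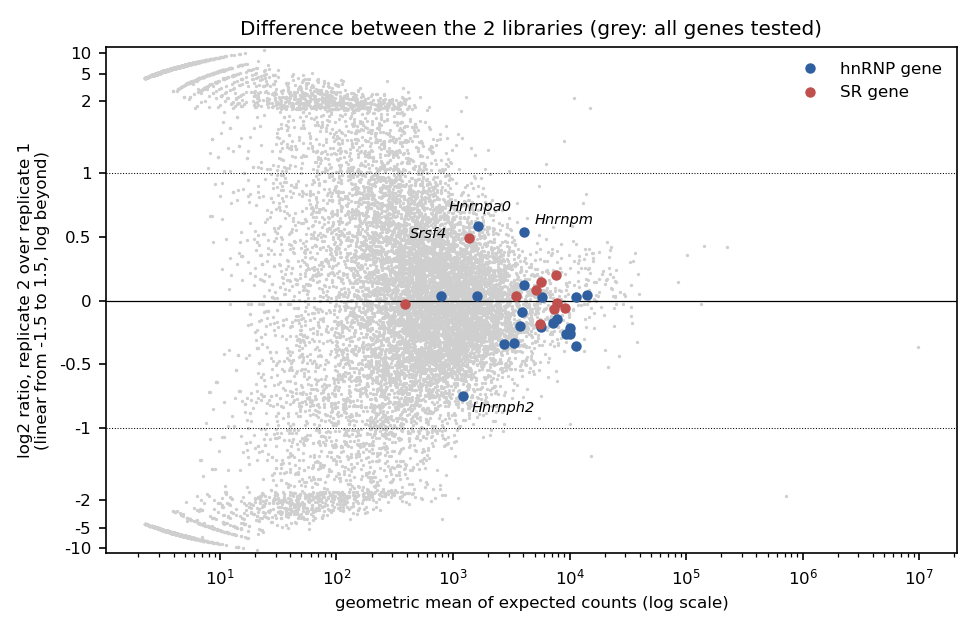
Log2 ratio of TMM-scaled counts, replicate 2 over replicate 1 (y axis, linear from -1.5 to 1.5 and log beyond), against the geometric mean of expected counts (x axis, log scale) for all 13616 genes tested (grey), SR genes (red) and hnRNP genes (blue), with dotted lines at 2-fold. All 30 detected members lie between the dotted lines, with Hnrnph2 lowest at -0.75 and Hnrnpa0 highest at 0.59.

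The largest difference was in Hnrnph2, with 1556 counts in replicate 1 and 945 in replicate 2, a log2 ratio of -0.75 (exact binomial test, adjusted p = 7.11e-36). Higher in replicate 2 were Hnrnpa0, with 1320 and 2018 counts (log2 ratio 0.59, adjusted p = 6.21e-30 by the same exact test), and Hnrnpm, with 3356 and 4961 counts (0.54, exact adjusted p = 1.09e-61). Srsf4, the largest difference among the SR genes, had 1136 and 1627 counts (0.49, exact adjusted p = 4.29e-18). Lower in replicate 2 after Hnrnph2 were Hnrnpa3 at -0.36, Hnrnpul2 at -0.34 and Hnrnpr at -0.33. The 7 members not called were Hnrnph1, Srsf2, Hnrnpdl, Srsf10, Hnrnph3, Hnrnpll and Srsf9, with log2 ratios from -0.03 to 0.04. Counts and TPM could differ in direction, since they are scaled differently and TPM also depends on which transcript lengths the reads are assigned to. Srsf1 fell by 0.07 on the log2 scale in TMM-scaled counts, with 7427 and 7224. Its TPM was higher in replicate 2, where the shorter Srsf1-204 took more. Under total-count scaling its log2 ratio of counts was 0.13. The parts of scaling and transcript length were not tested.

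The direction of small differences depended on the scaling. With totals in place of TMM, the median log2 ratio of all genes tested moved from 0.03 to 0.23, and 18 members were called higher and 6 lower in replicate 2. Under it Srsf2, Srsf3, Hnrnpab, Hnrnpd, Srsf11, Srsf1, Hnrnpu and Hnrnpul1 changed sign, as did Srsf9, which was called under neither scaling. Hnrnph2, Hnrnpa0, Hnrnpm and Srsf4 kept theirs.

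The unproductive share differed between libraries in 15 of 20 members by a two-sided Fisher's exact test on transcript counts, against 70.1% of the 5823 genes tested. It was called in 5 of 9 SR and 10 of 11 hnRNP genes. By counts the share was called as higher in replicate 2 in 8 of the 20 members, against 32.7% of all genes tested. Hnrnph3 read 49.4% and 81.6% of TPM and 41.4% and 52.8% of counts (exact adjusted p = 1.43e-05), on 777 and 811 counts for the gene. The 651-nucleotide retained intron Hnrnph3-205 took 19.7% and 72.5% of its TPM. Hnrnpll read 31.7% and 52.5% of TPM and 30.8% and 55.7% of counts (exact adjusted p = 6.39e-45). Srsf1 read 23.9% and 37.2% of TPM and 3.92% and 9.15% of counts (exact adjusted p = 1.49e-37, on the counts). All 3 were higher in replicate 2. Srsf2, Srsf6, Srsf11, Hnrnpu and Srsf9 did not pass, Srsf2 at an exact adjusted p of 0.722. Of the 6 members over 50% in both libraries, Srsf2, Srsf3, Srsf11 and Hnrnpk differed by under 4 percentage points between libraries, and Srsf10 and Hnrnph1 by more.

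Most genes of the machinery that acts on these proteins were also detected as RNA. Of 13 kinase, phosphatase and import genes of SR proteins, 12 were detected in both libraries, and 3 were called higher and 6 lower in replicate 2. Clk1, a kinase that releases SR proteins from nuclear speckles, read 144 and 205 TPM, of which 94.1% and 95.9% was unproductive. Srpk1, the cytoplasmic SR kinase, read 73.4 and 66.2 TPM, Clk2 72.7 and 50.6 TPM, and Ppp1ca, a phosphatase subunit, 132 and 128 TPM. By counts neither Clk1 (4394 and 4647) nor Clk2 (2095 and 2208) was called. The muscle kinase gene Srpk3 had 0 counts. Among 16 SR-related and exon junction genes 15 were detected, 2 called higher and 10 lower, led by the speckle scaffold Srrm2 at 323 and 336 TPM, Acin1 at 168 and 139.7, Thrap3 at 158 and 124 and Srrm1 at 124 and 149. The neuronal Srrm4 had 0 counts.

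Of 20 hnRNPs and relatives under other symbols, 19 were detected, with 5 called higher and 10 lower. They were led by Ewsr1 at 225 and 225 TPM, Ptbp1, which binds pyrimidine tracts, at 266 and 165, Sfpq at 181 and 205 and Tardbp at 159.7 and 206 TPM. By counts Ptbp1 was not called, with 8334 and 8431, and its unproductive share was 71.15% and 18.3% of TPM. Ewsr1 was called higher in replicate 2, with 5897 and 7071 counts. Ralyl had 0 counts. Of 30 other splicing regulators 14 were detected and 15 stayed below 1 TPM in both libraries, with 7 called higher and 9 lower. Mbnl1 led at 234 and 208 TPM, then Rbm39, Rbm25 and Rbm5, while Rbfox1, Rbfox3, Nova1 and Nova2, known from neurons, had 0 counts. All 10 NMD factors were detected, at a median of 18.0 and 18.8 TPM, with 6 called higher and 2 lower. These calls are read against the same background of 78.2%.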

How the data were processed

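Total RNA-seq of 2 CMP pools (replicates 1 and 2 per the labels) was taken from the deposited gene and transcript tables. Per the file headers and readme files, reads were aligned to the mm10 transcriptome of GENCODE M4, with aligner and quantifier not given in the sources used here. Expected counts, as deposited, divide reads shared between entries. The deposited TPM values are scaled to 1000000 over all entries, and the deposited percent values are a transcript's share of its gene's TPM. The deposited interval bounds of TPM (treated as signal), lengths and FPKM entered no test.

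Unversioned identifiers were looked up in GENCODE M21, build GRCm38 (42462 of 43346 genes and 101510 of 103639 transcripts), which gave symbols, transcript classes, coordinates and sequences. Members, lists and tests were chosen with earlier results of these data known. Named are all members, 4 leading and up to 4 low genes of each related list, unproductive transcripts with a mean share of 20% or more or the highest of each of the 6 members with the highest mean share, and all markers, some being left out for length. Detection meant at least 1 TPM in each library. Libraries were compared on rounded expected counts with TMM scaling by edgeR 4.0.16 (R 4.3.3): an exact binomial test for genes reaching 10 counts in either library, ribosomal RNA, tRNA and spike-in entries left out, computed with R's own binomial test for genes above the size where edgeR switches to an approximation. Unproductive against coding counts were compared by Fisher's exact test for genes reaching 50 counts in each. Both used Benjamini-Hochberg adjustment at 0.05 and were tested on simulated data. Alternatives were other thresholds, rescaled or posterior mean TPM, DESeq2 1.42.0 size factors, totals, a common dispersion, other transcript classes, count shares and leaving out a library. Tables were handled in Python 3.11.15 with pandas 2.3.3 and scipy 1.17.1.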

Additional observations from a re-analysis of the deposited data

How the results depend on the processing

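The 30 detected members and the 0 members past 2-fold were the same under every alternative run. Rescaling TPM over nuclear protein-coding genes raised the SR median from 118.6 to 307.7 and the hnRNP median from 150.5 to 391 TPM, by construction, and posterior mean TPM gave 143.9 for the hnRNPs. The SR median of the unproductive share, 48.8% over both libraries, was 11.0% for NMD transcripts alone, 16.55% without retained introns, 39.7% by counts and 20.3% for unproductive transcripts of 1000 bases or more. The hnRNP median, 34.2%, was 0%, 4.21%, 22.6% and 8.22% in the same order. The limit of 1000 bases and the order by coding transcripts (10 neighbouring pairs apart in place of 9) were chosen after the data were seen. Leaving out 1 library gave 43.7% to 53.8% for the SR and 29.9% to 38.5% for the hnRNP median share, 113.6 to 123.5 and 149.6 to 151.4 TPM. Calls between libraries were 23 with DESeq2 size factors and 24 with totals, but 0 by edgeR's exact test at the common dispersion, which is estimated from the difference it tests and is void as a check. Totals reversed the log2 ratios of Srsf2 (0.18), Srsf3 (0.14), Srsf1 (0.13), Hnrnpul1 (0.11), Hnrnpab (0.06), Srsf11 (0.02), Hnrnpu (0.02) and Hnrnpd (0.00), and moved the uncalled Srsf9 from -0.03 to 0.17. Fisher calls were 15 of 20 with a minimum of 200 counts, and 10 of 14 for NMD transcripts alone, against 54.8% of all 2074 genes tested that way. No paired analysis was possible because both libraries belong to 1 group. The effect of depth was not tested; the detected members had at least 386 counts in each library.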
